A study of Mus musculus with 7 samples.

Results

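The collagen genes of mouse muscle are described here, 44 genes among the 19939 genes measured, in the extensor digitorum longus (EDL) of the hindlimb, whose fibres are mostly of the fast type. A gene was taken as a collagen gene where its platform symbol reads Col, a number, the letter a and a second number, and where a probe set names that gene alone. Where a gene had more than 1 such probe set (Col6a5 and Col6a6), the brighter one, by its mean over the 7 arrays, was used. Col21a1 was not analysed here. The study compared 3 mice labelled as AMPKα1α2 double knockouts with 4 wild type mice. AMPKα1 and AMPKα2 are the catalytic subunits of AMP-activated protein kinase, an enzyme that responds to low cellular energy. Both genotypes were on a mixed C57/Bl6 and SV129 background. Total RNA of each muscle was read on 1 single-colour array, and the values are log2 expression. The series title concerns fatty acid use in exercise. The labels give neither the age or sex of the mice, nor whether the muscles had been exercised, nor which promoter or cell type the deletion was limited to, if any.

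Collagens are secreted proteins whose chains wind around each other in a triple helix and then assemble outside the cell. Fibrillar collagens form the cables of tendon and of the connective tissue between muscle fibres, collagen IV forms a sheet-like network in the basement membrane around each fibre and capillary, and collagen VI forms beaded filaments that link both. In muscle most collagen transcripts come from fibroblasts and related stromal cells, with further basement membrane collagen from endothelial cells and the fibres. In bulk tissue, fewer cells of a type and less RNA per cell cannot be told apart.

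The promoter stretches below are shown for Col1a2, whose mean was lower in knockout muscle, and for Col3a1 and Col8a1, whose means were higher. None of these genes passed after adjustment, and the arrays of Col1a2 and Col3a1 overlapped between genotypes. They are from the RefSeq promoter table of GRCm38.p6, which held 35 of the 44 genes. Each is the 120 bases that end just before the gene's start, 5′ to 3′ on the gene's strand. Capitals mark matches, on either strand, to the letters CCAAT (bound by NF-Y), GGGCGG (bound by Sp factors) and TATAAA (the letters of a TATA box). Col1a2 lies at chr6:4505498-4505617 on the plus strand, Col3a1 at chr1:45311418-45311537 on the plus strand, and Col8a1 at chr16:57754738-57754857 on the minus strand.
Col1a2: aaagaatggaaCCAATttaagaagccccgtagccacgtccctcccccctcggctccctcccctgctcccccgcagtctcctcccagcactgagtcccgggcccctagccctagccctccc
Col3a1: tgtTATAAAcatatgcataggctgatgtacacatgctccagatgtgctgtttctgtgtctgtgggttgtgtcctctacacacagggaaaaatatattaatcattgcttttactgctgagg
Col8a1: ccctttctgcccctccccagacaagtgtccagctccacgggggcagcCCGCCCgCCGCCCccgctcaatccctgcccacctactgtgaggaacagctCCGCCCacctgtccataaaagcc
In the Col1a2 stretch the search found 1 CCAAT, in the Col3a1 stretch 1 TATAAA, and in the Col8a1 stretch 3 copies of GGGCGG in reverse complement. The TATAAA of Col3a1 lies at the end of its stretch that is farthest from the gene's start. Of all 32851 promoters in the table, 21.3% held CCAAT, 26.5% held GGGCGG and 6.3% held TATAAA in a stretch of the same length. Such a match describes the letters of the window and no more.

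The arrays were checked before the genotypes were compared. Prkaa1, which encodes AMPKα1, read 9.09, 9.19 and 8.80 in the knockout muscles, against 9.54, 9.48, 9.61 and 9.53 in the wild type muscles, a difference of -0.51 ± 0.09 (SE; limma adjusted p = 0.12). Prkaa2, which encodes AMPKα2, read 12.04, 11.95 and 12.04 in knockout, against 12.31, 12.03, 12.28 and 12.28 in wild type, a difference of -0.22 ± 0.07 (SE; limma adjusted p = 0.39). Neither passed over all genes, and which exons were deleted, and whether these probe sets lie within them, could not be read from the labels. The 8 skeletal muscle fibre markers averaged 13.86 to 13.88 on the knockout arrays and 13.83 to 13.89 on the wild type arrays, which places the EDL label beside high fibre transcripts on every array. Array medians lay between 7.50 and 7.58, highest on the array of knockout replicate 3, and that array also received the lowest weight, 0.294, when arrays were weighted by their fit. Results that rest on it are given below with and without it. With 7 arrays in all, the number of arrays sets the precision of each value below.

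No collagen gene passed the limma test after Benjamini-Hochberg adjustment over all genes (adjusted p under 0.05 in 0 of 44), where 0.0251% of all genes passed. At an adjusted p under 0.1 the count was also 0 of 44, with 72 genes passing in all. At an unadjusted p under 0.05, 2 collagen genes were higher in knockout, Col8a1 and Col5a2, against a background of 3.93%, and 0 were lower, against a background of 6.69%. Col8a1 was the single collagen gene whose knockout arrays all lay above the wild type arrays, against 3.29% of all genes, and 0 lay wholly below, against 5.33%. Counts this small beside those backgrounds are no result about the collagen genes as a group. The knockout mean was above the wild type mean for 35 of 44 collagen genes (79.5%), against 46.6% of all genes, with a median difference of 0.04 over the collagen genes and -0.005 over all genes. That count depended on 1 array: without knockout replicate 3, the mean was above wild type for 10 of 44. The share of all genes without that array is not given here. How far the fall was particular to the collagen genes was not tested.

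**Figure D1:**
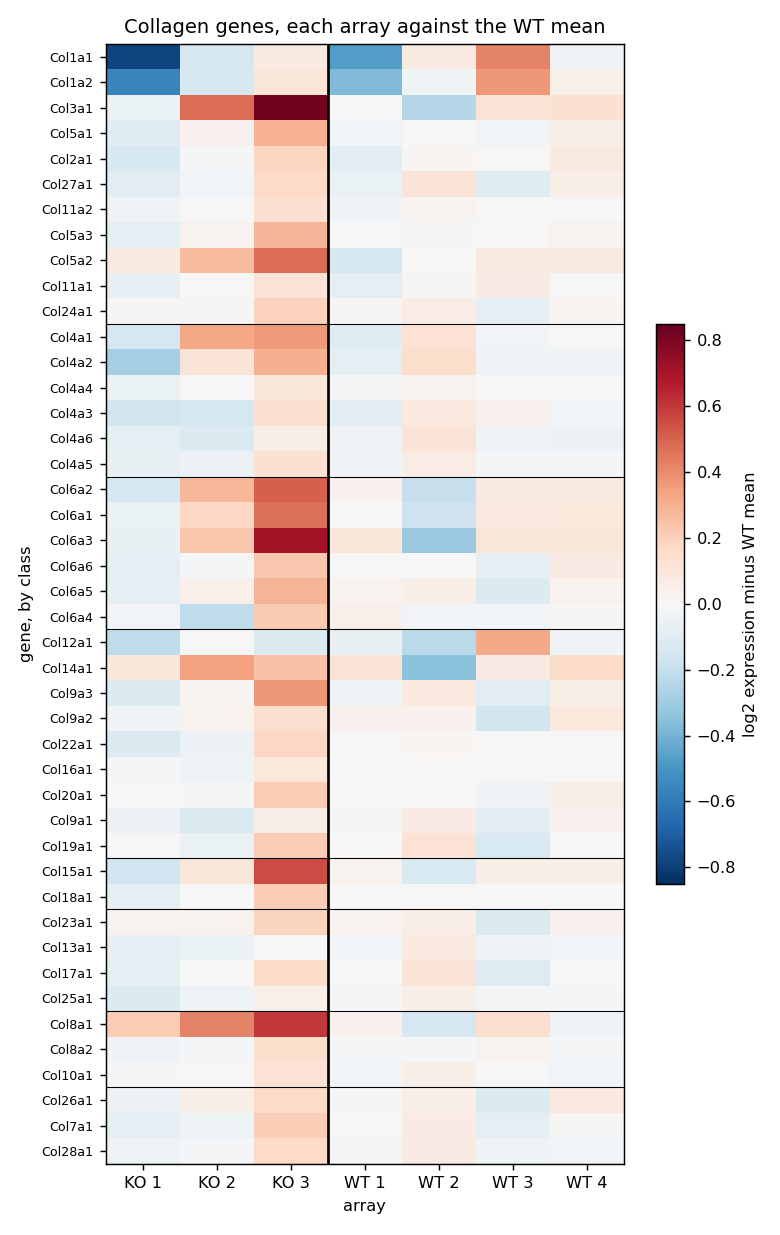
Log2 expression of the 44 collagen genes (down the page, grouped by class with lines between classes) on each array (across, knockout left of the black line and wild type right of it), as the difference from the wild type mean of each gene. The column of knockout replicate 3 is above the wild type mean for most genes, and that of knockout replicate 1 is mostly below it.

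The spread between knockout arrays was the broadest pattern in these genes. Each mouse had 1 array, so a difference of the mouse and of the array cannot be told apart. Knockout replicate 3 gave the highest of the 7 values for 36 of 44 collagen genes (81.8%), against 28.6% of all genes, a share not matched for brightness. Over all probe sets that array had the highest lower quartile, 6.577, and the lowest upper quartile, 8.802. It was highest for 30 of the 35 collagen genes with a mean at 9 or under, and for 6 of the 9 brighter ones. Knockout replicate 1 gave the lowest value for 21 of 44 (47.7%), against 15.2% of all genes. Within the knockout group, replicate 3 was highest and replicate 1 lowest for 34 of 44 (77.3%), against 21.9% of all genes. The range of the knockout values was wider than that of the wild type values for 37 of 44 (84.1%), although it covers fewer arrays, against 53.4% of all genes. Knockout replicate 3 lay above every wild type array for 37 of the 44, against 6664 of all 19939 genes. Knockout replicate 1 lay below every wild type array for 23 of the 44, against 4968 of all 19939. The mean level over the 44 genes was 8.23, 8.36 and 8.56 on the knockout arrays, against 8.29, 8.32, 8.33 and 8.35 on the wild type arrays, so the wild type arrays lay between knockout replicates 1 and 3. Tied values between arrays, which occurred in 23 of the 44 genes (52.3%) and in 59.4% of all genes, limit how finely dim genes can be ordered.

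Col8a1, which encodes a chain of the short-chain network collagen VIII found in vessel walls and in connective tissue, gave the smallest p of the 44. It read 8.58, 8.79 and 8.97 in knockout muscles, against 8.40, 8.22, 8.50 and 8.34 in wild type muscles. Every knockout value was above every wild type value, and the lowest knockout value was close to the highest wild type value. The difference was 0.41 ± 0.10 (SE; 95% interval 0.17 to 0.65), or 1.33-fold, with an unadjusted p of 0.00461 and a limma adjusted p of 0.246. Leaving out knockout replicate 3 gave 0.32, and leaving out knockout replicate 1 gave 0.51. Its partner chain Col8a2 differed by 0.03 (95% interval -0.08 to 0.15), and the third short-chain gene, Col10a1, a collagen of growth plate cartilage, by 0.04.

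The fibrillar class held 11 genes, with a median difference of 0.031 and 9 of 11 knockout means above wild type. Within it the chains of collagen I and collagen III, which lie in the same fibrils, gave differences of opposite sign. Col1a1, the gene for the main chain of collagen I and the brightest of the 44, read 10.82, 11.46 and 11.68 in knockout, against 11.13, 11.68, 12.03 and 11.58 in wild type. The groups overlapped, and the lowest values came from replicate 1 of each genotype. Col1a1 differed by -0.28 ± 0.26 (SE; 95% interval -0.90 to 0.33; limma adjusted p = 0.76).

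Col1a2, the gene for the second chain of collagen I, was likewise lowest on replicate 1 of each genotype and highest on replicate 3, at 10.67, 11.10 and 11.34 in knockout, against 10.86, 11.20, 11.60 and 11.28 in wild type. It differed by -0.20 ± 0.21 (SE; 95% interval -0.69 to 0.29; limma adjusted p = 0.791). Without knockout replicate 1 the difference was -0.04 for Col1a1 and -0.02 for Col1a2, and without knockout replicate 3 it was -0.46 and -0.35.

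Col3a1, the single chain of collagen III, read 9.56, 10.09 and 10.44 in knockout, against 9.61, 9.38, 9.73 and 9.74 in wild type. Knockout replicates 2 and 3 lay above all wild type arrays, while knockout replicate 1 lay among them. The difference was 0.41 ± 0.20 (SE; 95% interval -0.06 to 0.89; limma adjusted p = 0.543). Leaving out knockout replicate 1 gave 0.65 (limma adjusted p = 0.135), and leaving out knockout replicate 3 gave 0.21 (limma adjusted p = 0.687).

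Col5a2, a chain of collagen V, which starts fibrils and limits their thickness, read 7.96, 8.15 and 8.36 in knockout, against 7.74, 7.88, 7.96 and 7.96 in wild type. The lowest knockout value was level with the highest wild type values. The difference was 0.27 ± 0.10 (SE; 95% interval 0.03 to 0.51; unadjusted p = 0.0301; limma adjusted p = 0.418). The unadjusted limma p was 0.0969 with knockout replicate 3 left out (difference 0.17) and 0.0701 with knockout replicate 2 left out (difference 0.27). It was also above 0.05 with wild type replicate 1 or wild type replicate 2 left out. The other collagen V chains, Col5a1 and Col5a3, differed by 0.08 each. Col3a1 and Col5a2 are neighbours on chromosome 1 in the RefSeq gene order. The remaining fibrillar genes, among them the cartilage collagens Col2a1, Col11a1 and Col11a2, differed by 0.01 to 0.07.

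**Figure D2:**
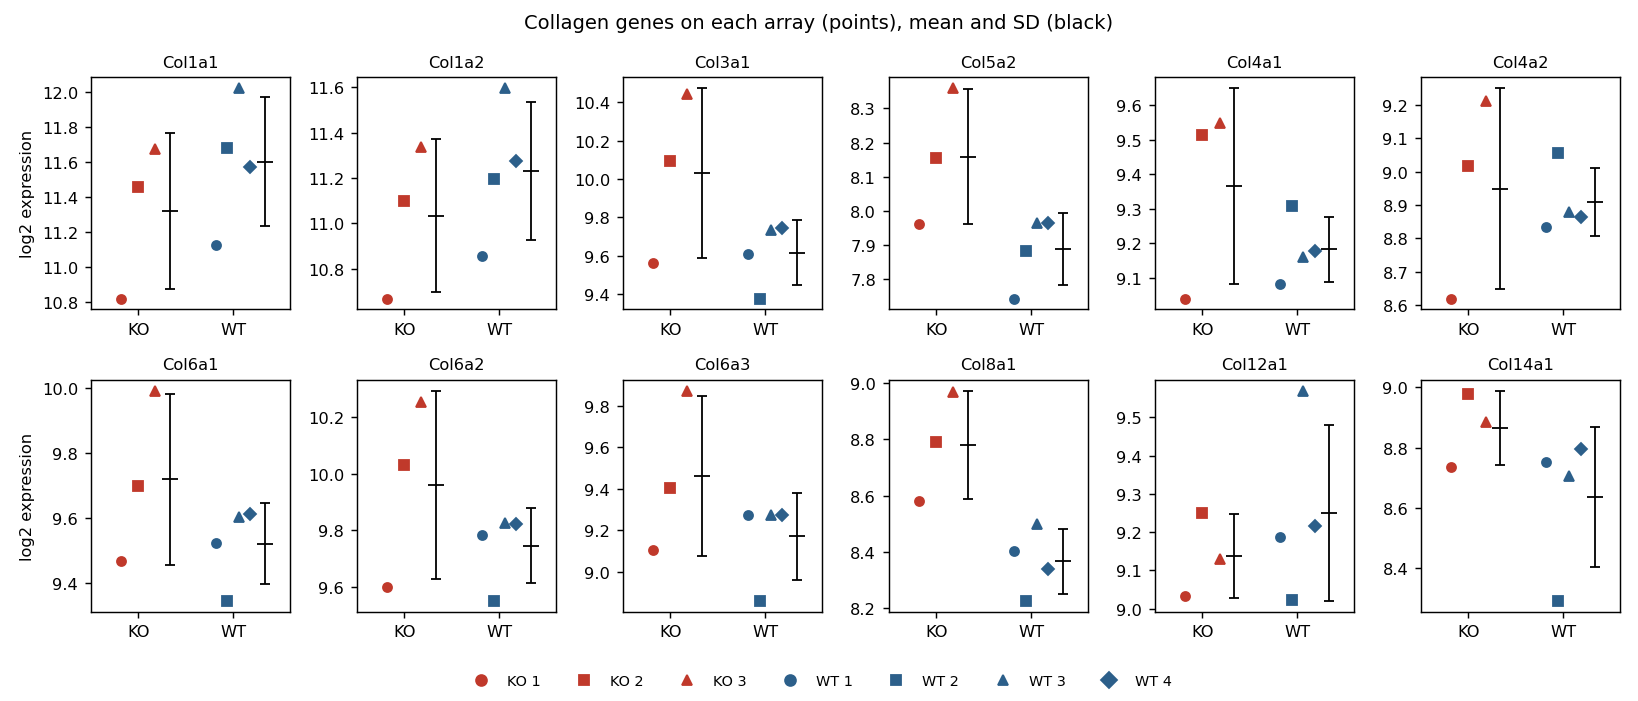
Log2 expression (vertical axes, which differ between panels and do not start at 0) of 12 collagen genes in the knockout (left, red) and wild type (right, blue) muscles, with 1 point per array and the mean with its SD in black. Knockout and wild type points are apart for Col8a1, while in the other panels they overlap, with knockout replicate 1 low in most.

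The difference between Col3a1 and Col1a1 on the same array varied little among the knockout mice, although each gene varied widely. Col3a1 minus Col1a1 was -1.26, -1.37 and -1.24 on the knockout arrays, against -1.52, -2.30, -2.29 and -1.83 on the wild type arrays. All knockout arrays lay above all wild type arrays, by 0.70 on average, and by 0.59 to 0.85 when any 1 array was left out. Against Col1a2, Col3a1 gave a mean difference of 0.61, also with no overlap. By comparison, Col1a1 minus Col1a2 differed by -0.09 with overlap. These pairs were chosen after their values were seen, and no test was run on them. Since signals of different probe sets are not on a common scale, the sign of such a value on 1 array has no meaning, only its difference between arrays.

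**Figure D3:**
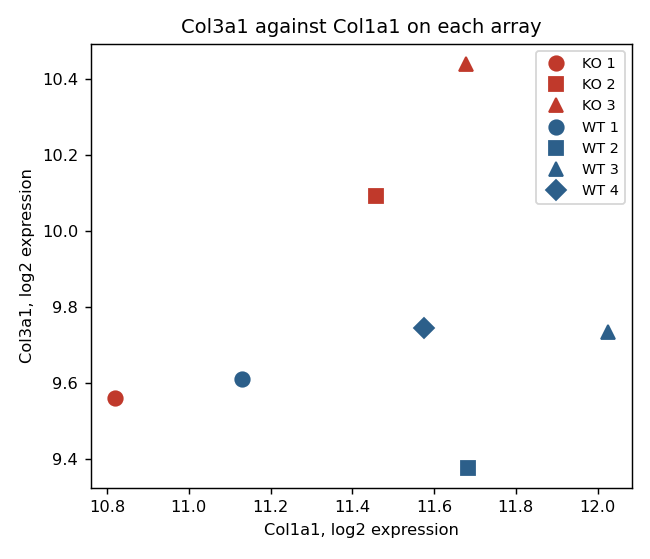
Log2 expression of Col3a1 (vertical) against Col1a1 (horizontal) on the 7 arrays, with knockout in red and wild type in blue and 1 symbol per replicate number. The knockout points lie along a rising line, and at a like Col1a1 value knockout replicates 2 and 3 have more Col3a1 than the wild type arrays.

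The 6 collagen IV genes of the basement membrane had a median difference of 0.009, with 4 of 6 knockout means above wild type and none past an unadjusted p of 0.05. They are arranged in pairs that start next to each other and are read in opposite directions. Col4a1, which with Col4a2 forms the collagen IV present in nearly all basement membranes, read 9.04, 9.51 and 9.55 in knockout, against 9.08, 9.31, 9.16 and 9.18 in wild type. Knockout replicates 2 and 3 were above all wild type arrays and knockout replicate 1 was below them, for a difference of 0.18 ± 0.13 (SE; 95% interval -0.12 to 0.49). Col4a2 read 8.62, 9.02 and 9.21 in knockout, against 8.83, 9.06, 8.88 and 8.87 in wild type, a difference of 0.04 ± 0.14 (SE; 95% interval -0.28 to 0.36).

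Col4a1 and Col4a2 share a start region on chromosome 8, and their windows in the RefSeq promoter table of GRCm38.p6 overlap by 78 bases, at chr8:11312777-11312854. Col4a1 minus Col4a2 was 0.42, 0.50 and 0.33 on the knockout arrays, against 0.25, 0.25, 0.28 and 0.31 on the wild type arrays. The groups did not overlap in this pair value, which differed by 0.14 and was chosen after its values were seen, with no test run.

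The other collagen IV chains, known from the filter of the kidney and from some other specialised basement membranes, were dim and moved little. Col4a3 read 7.46, 7.47 and 7.75 in knockout, against 7.52, 7.70, 7.65 and 7.59 in wild type, and its neighbour Col4a4 read 7.55, 7.60 and 7.71, against 7.60, 7.63, 7.60 and 7.60. The X-linked pair gave 7.01, 7.02 and 7.21 for Col4a5 in knockout, against 7.05, 7.14, 7.06 and 7.06 in wild type. Col4a6 gave 7.18, 7.14 and 7.31 in knockout, against 7.23, 7.38, 7.23 and 7.22 in wild type. All 4 overlapped between genotypes, with differences of -0.06 for Col4a3, 0.01 for Col4a4, 0.01 for Col4a5 and -0.05 for Col4a6. The sign of Col4a4 and of Col4a5 turned under median centring and under quantile normalization.

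Among the 6 collagen VI genes, whose loss causes congenital muscle disease in the case of Col6a1, Col6a2 and Col6a3, the median difference was 0.14, the highest of the classes with at least 3 genes, and 5 of 6 knockout means were above wild type. Col6a1 read 9.47, 9.70 and 9.99 in knockout, against 9.52, 9.35, 9.60 and 9.61 in wild type. Col6a2 read 9.60, 10.03 and 10.25 in knockout, against 9.78, 9.55, 9.82 and 9.82 in wild type. Col6a3 read 9.10, 9.41 and 9.87 in knockout, against 9.27, 8.86, 9.27 and 9.27 in wild type. In each of these, knockout replicates 2 and 3 exceeded all wild type arrays, knockout replicate 1 did not, and wild type replicate 2 was the lowest array.

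The differences were 0.20 ± 0.13 for Col6a1, 0.21 ± 0.15 for Col6a2 and 0.29 ± 0.19 for Col6a3 (SE), with limma adjusted p of 0.662, 0.695 and 0.671. Without knockout replicate 3 they shrank to 0.07 for Col6a2 and 0.09 for Col6a3. Col6a1 and Col6a2 are neighbours on chromosome 10, and Col6a1 minus Col6a2 differed by -0.02 between genotypes, with overlap. Col6a4, Col6a5 and Col6a6, dimmer chains encoded side by side on chromosome 9, differed by -0.004, 0.08 and 0.04. Their second probe sets, where present, differed by 0.03 for Col6a5 and by -0.08 for Col6a6, so those of Col6a6 disagreed in sign.

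The 9 fibril-associated collagens, which decorate fibrils without forming them, had a median difference of 0.044, with 7 of 9 above wild type. Col12a1, prominent in tendon and at load-bearing interfaces, read 9.03, 9.25 and 9.13 in knockout, against 9.19, 9.02, 9.57 and 9.22 in wild type, a difference of -0.11 ± 0.13 (SE). Here knockout replicate 3 was not the highest array, unlike in most of the other genes. Col14a1, a related collagen of fibroblasts, read 8.73, 8.98 and 8.88 in knockout, against 8.75, 8.29, 8.70 and 8.79 in wild type, a difference of 0.23 ± 0.13 (SE; limma adjusted p = 0.612). Wild type replicate 2 lay far below the other wild type arrays in that gene. Col22a1, a collagen of the junction between muscle and tendon, differed by 0.003.

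Col15a1 is a multiplexin of the basement membrane zone of muscle and capillaries. It read 8.95, 9.21 and 9.66 in knockout, against 9.14, 8.98, 9.16 and 9.16 in wild type, a difference of 0.17 ± 0.16 (SE) that was -0.03 without knockout replicate 3. Among the 4 transmembrane collagens, Col23a1 had the smallest p, reading 8.40, 8.40 and 8.55 in knockout, against 8.39, 8.42, 8.24 and 8.40 in wild type (difference 0.09 ± 0.06, SE). Their median was -0.009, and the class includes Col13a1 and Col25a1, which serve the contact between nerve and muscle and which differed by -0.04 each. In the class of anchoring and other collagens, Col26a1 read 8.51, 8.61 and 8.72 in knockout, against 8.54, 8.61, 8.45 and 8.64 in wild type (difference 0.05 ± 0.07, SE). None of these passed at an unadjusted p of 0.05.

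**Figure D4:**
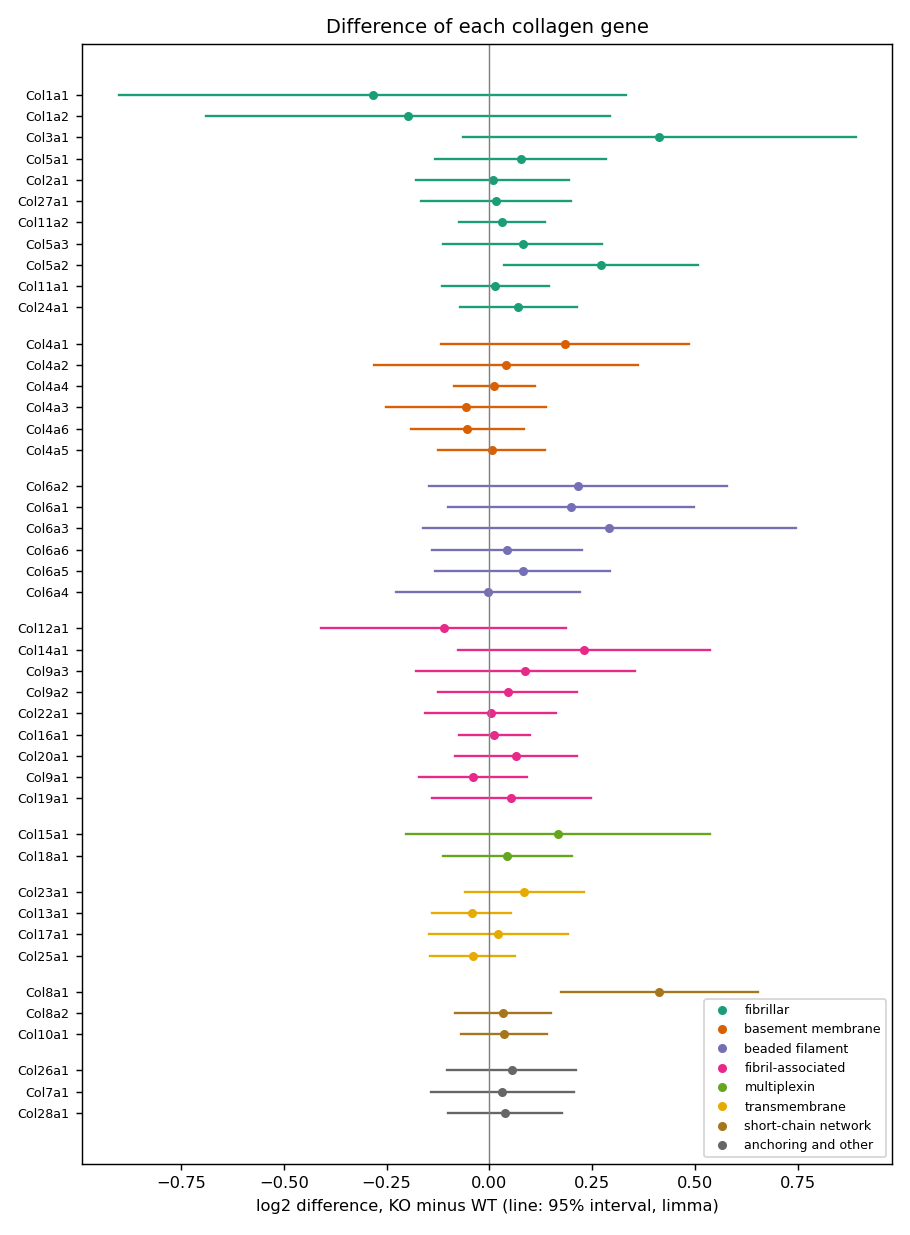
Difference in log2 expression, knockout minus wild type, of each of the 44 collagen genes (dots), with its 95% interval from limma (lines) and colours for the classes. The intervals of Col8a1 and Col5a2 lie above 0, and all others include 0.

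Set side by side, the fibrillar, basement membrane and other classes had median differences of 0.031, 0.009 and 0.044, against -0.005 over all genes. Without knockout replicate 3 the medians of the classes were -0.033, -0.074 and -0.026, and the median over all genes without it is not given here. The mean level of the fibrillar class was 8.73, 8.95 and 9.16 on the knockout arrays, against 8.78, 8.90, 8.97 and 8.94 on the wild type arrays. That of the basement membrane class was 7.81, 7.96 and 8.12 in knockout, against 7.89, 8.03, 7.93 and 7.92 in wild type. That of the other 27 genes was 8.12, 8.21 and 8.41 in knockout, against 8.18, 8.15, 8.16 and 8.21 in wild type. In all 3 groupings knockout replicate 1 was the lowest array and knockout replicate 3 the highest, so the genotypes overlapped and the classes did not separate by genotype. The 9 collagen genes with a mean over 9 differed by -0.28 to 0.41, while the 35 dimmer ones, with Col8a1 at the top, differed by -0.06 to 0.41.

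**Figure D5:**
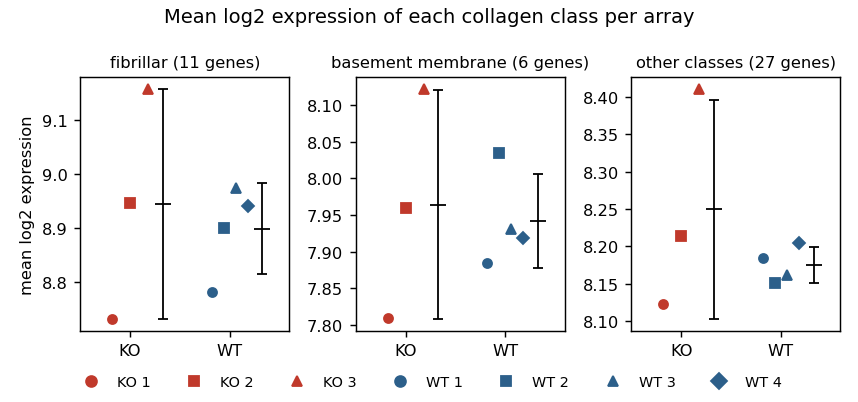
Mean log2 expression (vertical axes, which differ between panels and do not start at 0) over the genes of the fibrillar, basement membrane and other classes, with 1 point per array, knockout left in red and wild type right in blue, and the mean with its SD in black. The wild type points lie between knockout replicates 1 and 3 in each panel.

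The genes that build, bind and break down collagen were read from the same fit, and none of them passed after adjustment. At an unadjusted p under 0.05, the collagen maturation list of 28 measured genes held 2 higher and 1 lower, with a median difference of 0.014. Of all genes, 3.93% were higher and 6.69% lower at this threshold, and the counts of this list lie near those shares. Loxl1, an oxidase that cross-links elastin and collagen, read 9.38, 9.59 and 9.61 in knockout, against 9.21, 8.98, 9.25 and 9.23 in wild type, with no overlap (difference 0.36 ± 0.08, SE; limma adjusted p = 0.229). P4ha3 and P4ha2, which are alternative catalytic subunits of the prolyl hydroxylase that stabilises the helix, differed in opposite directions, by 0.38 ± 0.11 and by -0.31 ± 0.12 (SE).

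The list of 10 measured collagen receptors held 0 higher and 2 lower by the same threshold (3.93% and 6.69% of all genes), with a median of 0.096. Cd36, a scavenger receptor that binds collagen and also takes up fatty acids, read 11.41, 11.28 and 11.07 in knockout, against 11.58, 11.89, 12.00 and 11.73 in wild type, with no overlap (difference -0.54 ± 0.12, SE; limma adjusted p = 0.182). Itga1, the α chain of an integrin receptor for collagen, differed by -0.19 ± 0.07 (SE), and Mrc2, an endocytic receptor for collagen fragments, by 0.12 ± 0.05 (SE).

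The collagen breakdown list of 13 measured genes also includes Timp1, Timp2, Timp3 and Timp4, which encode inhibitors of metalloproteinases. It held 5 higher and 1 lower (3.93% and 6.69% of all genes), with a median of 0.174. Timp1 and Timp2 were among the higher genes and Timp4 was the lower one, so the counts mix enzymes with inhibitors. Without wild type replicate 2 the list held 1 higher gene, and with knockout replicate 1 left out it held 6. Mmp2, a gelatinase, read 11.02, 11.19 and 11.82 in knockout, against 10.80, 10.51, 10.87 and 10.87 in wild type, with no overlap (difference 0.58 ± 0.19, SE; limma adjusted p = 0.383). The genes for tissue inhibitors of metalloproteinases differed in sign. Timp2 differed by 0.27 ± 0.08 and Timp4 by -0.71 ± 0.20 (SE), neither overlapping between genotypes. Timp1 differed by 1.19 ± 0.46 (SE), with overlap, and Timp3 by -0.13 ± 0.12 (SE).

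The list of 16 measured basement membrane partners held 2 higher and 2 lower (3.93% and 6.69% of all genes), with a median of 0.028. The higher count was 5 with knockout replicate 1 left out, 1 with wild type replicate 4 left out, and 0 with any other array left out. The laminin chain gene Lamc1 differed by 0.30 ± 0.10 and Nid1, whose product links laminin to collagen IV, by 0.30 ± 0.12, while the laminin chain gene Lama5 differed by -0.18 ± 0.04 (SE).

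Markers of the cells that make or surround collagen were read beside these genes. Of 10 fibroblast markers 9 were above wild type, with a median difference of 0.15, and their mean level was 10.28 to 10.40 on the knockout arrays, against 9.96 to 10.19 on the wild type arrays. Among them were Dpt at 0.42 and Pdgfra at 0.53. Of 9 tendon markers 2 were above wild type, with a median of -0.087 and mean levels of 9.90 to 10.01 in knockout, against 9.94 to 10.22 in wild type. Of 10 endothelial markers 0 were above wild type, with a median of -0.349 and mean levels of 9.23 to 9.35 in knockout, against 9.53 to 9.71 in wild type.

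Of 9 pericyte and smooth muscle markers 1 was above wild type, with a median of -0.276 and mean levels of 9.61 to 9.67 in knockout, against 9.76 to 9.90 in wild type. Of 10 macrophage markers 9 were above wild type, with a median of 0.606 and mean levels of 9.01 to 9.13 in knockout, against 8.32 to 8.59 in wild type, and Lyz2 and Tyrobp passed the adjusted threshold. The mean levels of the fibroblast, endothelial, pericyte, macrophage and satellite cell markers did not overlap between genotypes, whereas that of the 44 collagen genes together did. The mean of the short-chain network collagens did not overlap either, at 7.576 or more in knockout and 7.575 or less in wild type. Within that class Col8a1 alone lay apart, while Col8a2 and Col10a1 overlapped. The mean of the breakdown list, inhibitor genes included, did not overlap either, at 8.48 or more in knockout and 8.473 or less in wild type. How often the means of other gene lists lie apart was not tested. Median differences were -0.033 over 5 Schwann cell markers, -0.13 over 5 adipocyte markers, 0.027 over 8 cartilage and bone markers and 0.049 over 7 satellite cell markers, whose mean level was 8.23 to 8.29 in knockout, against 8.16 to 8.20 in wild type. The part of any of these cell types in the collagen values was not tested.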

How the data were processed

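The authors deposited 1 table of log2 expression values for 28856 probe sets on 7 single-colour arrays, 3 knockout and 4 wild type. The log base is inferred from the values, which ran from 4.41 to 14.65, above the 11.09 that a natural log of a 16-bit reading can reach. For normalization, software and array build the sources used here give nothing, and a scaling of the arrays to each other would hide a change common to all transcripts. Per the labels' protocols, RNA was extracted with TRIzol and labelled with the Ambion WT Expression Kit. Each array stands for 1 mouse, since the design text counts the samples as mice.

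Of the probe sets, 21789 carry 1 symbol in the platform annotation, 1621 carry several and 5446 are unnamed here. The 21789 were fitted with limma 3.58.1 in R 4.3.3 (lmFit and eBayes, knockout minus wild type, no covariate), with Benjamini-Hochberg adjustment over them and a threshold of 0.05. Genes were read at their probe set of highest mean, which gave 19939. The fit was tested on simulated data. Columns left unused numbered 0. Errors marked SE are limma's moderated standard errors.

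The collagen genes, classes, partner and marker lists were chosen with earlier results of these data known. Array values are given for the 8 brightest members, every member with an unadjusted p under 0.05 (at most 14), the member of smallest p per class and the collagen IV genes. The 3 genes of smallest p per partner list and at most 2 per marker list are named, some by their difference alone. Other genes named were chosen after their values were seen. The alternatives were each array left out in turn, array weights, median centring or quantile normalization, the mean of a gene's probe sets, all probe sets, only the brighter probe sets, a robust prior with a trend, an adjusted p under 0.1 and a replicate block.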

Additional observations from a re-analysis of the deposited data

Results flagged for a closer look

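In 8 of 31 named collagen and partner genes, 1 wild type array stood apart from the other wild type arrays. Its gap to the nearest one took up more of the group's range than Dixon's critical value for 4 samples allows. For independent values of a normal distribution, chance gives about 1 such group in 20. Here the genes share the same arrays, and some values are tied, as in Col4a5 and Col4a6. The share over all genes is not given, so no excess over chance is read from the count. In 6 of the 8 genes the array was wild type replicate 2. It was the low one for Col6a2, at 9.55 with the nearest array at 9.79, for Col6a3, at 8.86 with the nearest at 9.27, for Col15a1, at 8.98, and for Loxl1, at 8.98. It was the high one for Col4a5, at 7.14, and Col4a6, at 7.38. Wild type replicate 3 was low for Col23a1, at 8.24, and wild type replicate 1 for Nid1, at 10.23. Leaving out wild type replicate 2 gave differences of 0.15 for Col6a2 and 0.19 for Col6a3, against 0.21 and 0.29 with all arrays. What set these arrays apart was not tested.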

How the results depend on the processing

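Over 16 alternatives no collagen gene passed the adjusted threshold, which was 0.1 in 1 of them, read with all arrays, and 0.05 in the others. Among the 31 named collagen and partner genes, cell type markers left aside, the lowest limma adjusted p was 0.0943, for Nid1 without knockout replicate 1. Without that array Col8a1 had a limma adjusted p of 0.0979, which is under 0.1. Of 462 values of these 31 genes, 450 kept their sign and side of the threshold. None of the 31 was under 0.05 in any setting, so only signs changed, in 12 values. The robust prior, the use of all probe sets and the filter on dim probe sets leave each difference as it was. In those alternatives no sign could change, so the count of 450 is partly fixed in advance. With each array left out in turn, 1 to 8 collagen genes were higher and 0 to 2 lower at an unadjusted p under 0.05. The number with no overlap ran from 1 to 10 higher and from 0 to 8 lower. The number above wild type ran from 10 to 36. Shares of all genes with an array left out are not given here, for these counts or for the partner lists below. With fewer arrays, groups lie apart more often by chance. These counts are therefore no result about the collagen genes as a group. The highest counts of higher genes came without knockout replicate 1, when Col3a1, Col4a1, Col6a1, Col6a2, Col6a3 and Col15a1 joined Col8a1 and Col5a2. The lower genes and the count of 10 came without knockout replicate 3, when Col22a1 and Col4a3 were lower. Col8a1 alone was higher without knockout replicate 2, knockout replicate 3, wild type replicate 1 or wild type replicate 2. With replicate number as a replicate block, 2 genes were lower at an unadjusted p under 0.05, Col1a1 and Col1a2, and Col1a1 differed by -0.29 (unadjusted p = 0.00316, adjusted p = 0.391). Over all genes, deviations from the genotype mean correlated at 0.287, 0.159 and -0.197 between same-numbered arrays. Between differently numbered arrays they correlated at -0.262 to 0.204. These values do not settle whether the numbers pair the mice, and the main fit used no pairing. Under median centring 1 gene, Col13a1, was lower with no overlap. In the partner lists at an unadjusted p under 0.05, leaving out an array gave 2 to 4 higher and 0 to 2 lower genes of collagen maturation, 0 to 3 higher and 1 to 2 lower receptors, 1 to 6 higher genes of breakdown, and 0 to 5 higher and 1 to 2 lower basement membrane partners. With the replicate block there was 1 higher receptor and 1 lower basement membrane partner, with array weights 1 higher receptor, with the filter on dim probe sets 1 higher maturation gene, and under quantile normalization 2 lower maturation genes. The number of collagen genes above wild type was 28 under median centring, 33 under quantile normalization and 24 with array weights.

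Some small differences changed sign. Col4a4 was -0.004 under quantile normalization, -0.004 under median centring and -0.006 with array weights, and ran from -0.031 to 0.047 with an array left out. Col4a5 was -0.011, -0.011 and -0.024 under these, and ran from -0.057 to 0.04. With an array left out, Col15a1 ran from -0.028 to 0.33, Col26a1 from -0.001 to 0.106 and Col4a2 from -0.091 to 0.206, each lowest without knockout replicate 3. The cause was not tested. Signal near background limits what the dim collagens can show.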
